A study of Drosophila melanogaster with 2 samples.

Results

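The small heat shock protein gene cluster of cytological region 67B lies on arm 3L of the Drosophila melanogaster genome and holds the genes Hsp22, Hsp23, Hsp26, Hsp27, Hsp67Ba, Hsp67Bb and Hsp67Bc. These 7 genes, of 13945 protein-coding genes on the main chromosome arms, were chosen by name, with earlier peak results of these data known. In dm6 coordinates the outermost gene ends span chr3L:9371511-9385694, or 14.184 kb. Peaks and candidates were collected with a summit within 1 kb of each gene and across the whole cluster with 1 kb on each side, a window of 16.184 kb. The question is where the chromatin protein under study was found in this cluster, and at which of its genes.

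The protein was CkIIalpha-i1, named as an interactor of the casein kinase II alpha subunit. Chromatin was immunoprecipitated with an anti-GFP antibody from 1 group of whole embryos, aged 0 to 18 hours, in 2 biological replicates. The fly strain, CkIIalpha-i1-GFP, carries an insertion that targets CkIIalpha-i1 and makes a fusion of the protein with eGFP, a green fluorescent tag. Sonication gave fragments of 200 to 800 bp. The labels name no heat shock, treatment or second genotype, and whole embryos of this age range mix all tissues and many stages. No control library was analysed here, so no value could be set against a background measured in untagged embryos or in input chromatin.

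Small heat shock proteins are chaperones that hold unfolding proteins in solution without using ATP, and many are built around an alpha-crystallin domain. In Drosophila several genes of this cluster are induced together by heat, through heat shock factor bound to heat shock elements, and are also switched on during normal development. GAGA factor, which binds runs of alternating G and A, keeps several of these promoters open before induction, with RNA polymerase paused just past the start site.

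The authors deposited a ranked list of candidates and a thresholded list of peaks for each replicate, and 2 such pairs for the series. The ranked lists hold candidates that missed the threshold as well. The list called conservative here compares the replicates; it held 139481 candidates, of which 663 were thresholded peaks. The pooled list held 147135 candidates and 944 peaks, replicate 1 held 111177 and 427, and replicate 2 held 108922 and 569. Each candidate carries a signal value, which is the authors' score for that peak on a scale that is not stated, and a global irreproducible discovery rate (IDR), which is low where a peak's rank repeats between the 2 input lists. All thresholded peaks had an IDR of 0.01 or less. Signal values are used only to describe and rank candidates within a list, and the read depth behind them is unknown. The members are not independent of each other: Hsp22 and Hsp67Bb share a start site and overlap along most of their length, and 8 of the 24 conservative candidates in the window lay within 1 kb of 2 or more members.

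Hsp27 (FBgn0001226, chr3L:9384063-9385694, plus strand) encodes a small heat shock protein found mainly in the nucleus. It was the member with a thresholded peak, upstream of its start site at chr3L:9384063, and the sequence of that peak is shown first because the other results are read against it. It is given on the plus strand, which is the strand of the gene, from chr3L:9383776-9384059 in the RefSeq Release 6 genome. The second line holds the 60 bases just before it, chr3L:9383716-9383775, where the nearest heat shock element pair lies. Capitals mark fixed words, searched on both strands: the pairs of heat shock element units GAANNTTC and TTCNNGAA, the GAGA factor word GAGAG or its complement, and the TATA word TATAAA or its complement.
Hsp27 peak: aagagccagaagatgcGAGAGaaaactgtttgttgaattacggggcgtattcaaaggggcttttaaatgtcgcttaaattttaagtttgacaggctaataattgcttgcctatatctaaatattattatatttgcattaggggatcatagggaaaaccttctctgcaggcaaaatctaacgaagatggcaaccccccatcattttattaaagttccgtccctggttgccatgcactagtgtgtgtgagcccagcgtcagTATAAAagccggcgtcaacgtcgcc
Hsp27 upstream element: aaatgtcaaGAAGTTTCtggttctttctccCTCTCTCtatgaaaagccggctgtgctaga

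For comparison, 3 other upstream regions follow, each 5′ to 3′ on the strand of its gene. The Hsp26 sequence is the part of a non-thresholded candidate that lies upstream of the gene's first start site (chr3L:9377428-9377708, minus strand). The Hsp23 sequence is the 250 bases before its start site (chr3L:9381632-9381881, plus strand). The Hsp67Bc sequence is the whole stretch between the divergent Hsp67Bc and Hsp67Bb (chr3L:9372498-9372721, minus strand).
Hsp26 promoter candidate: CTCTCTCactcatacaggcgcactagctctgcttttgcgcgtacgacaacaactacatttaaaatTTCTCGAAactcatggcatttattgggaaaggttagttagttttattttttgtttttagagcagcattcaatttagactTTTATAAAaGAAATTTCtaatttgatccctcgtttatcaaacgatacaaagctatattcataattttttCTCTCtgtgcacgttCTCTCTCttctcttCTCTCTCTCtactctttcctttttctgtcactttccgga
Hsp23 upstream: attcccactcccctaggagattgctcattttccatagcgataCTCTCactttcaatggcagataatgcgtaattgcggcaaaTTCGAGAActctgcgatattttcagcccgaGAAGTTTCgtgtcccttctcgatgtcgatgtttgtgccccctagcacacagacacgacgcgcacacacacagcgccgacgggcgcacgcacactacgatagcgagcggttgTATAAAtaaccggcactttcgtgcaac
Hsp67Bc upstream: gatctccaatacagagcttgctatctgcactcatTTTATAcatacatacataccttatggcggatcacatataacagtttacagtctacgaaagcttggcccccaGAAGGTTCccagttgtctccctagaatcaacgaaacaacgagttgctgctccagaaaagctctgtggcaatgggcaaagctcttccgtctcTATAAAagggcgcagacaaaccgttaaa

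Of the 7 members, 1 had a thresholded peak of the conservative list with its summit within 1 kb of the gene, and this was Hsp27. Over all protein-coding genes the share was 5.76%, or 803 of 13945. The count was also 1 of 7, again Hsp27, in the pooled list, where 7.64% of all genes had a peak, in replicate 1, where 4.09% did, and in replicate 2, where 4.57% did. All 21 candidates of the pooled list in the window have the positions and signal values of conservative candidates. They differ in their input values and IDR, so the pooled list is not an independent repeat. A count of 1 in 7 genes is too small to tell the cluster's share from these backgrounds. Because the genes were chosen with these peaks known, no test was made of it.

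**Figure D1:**
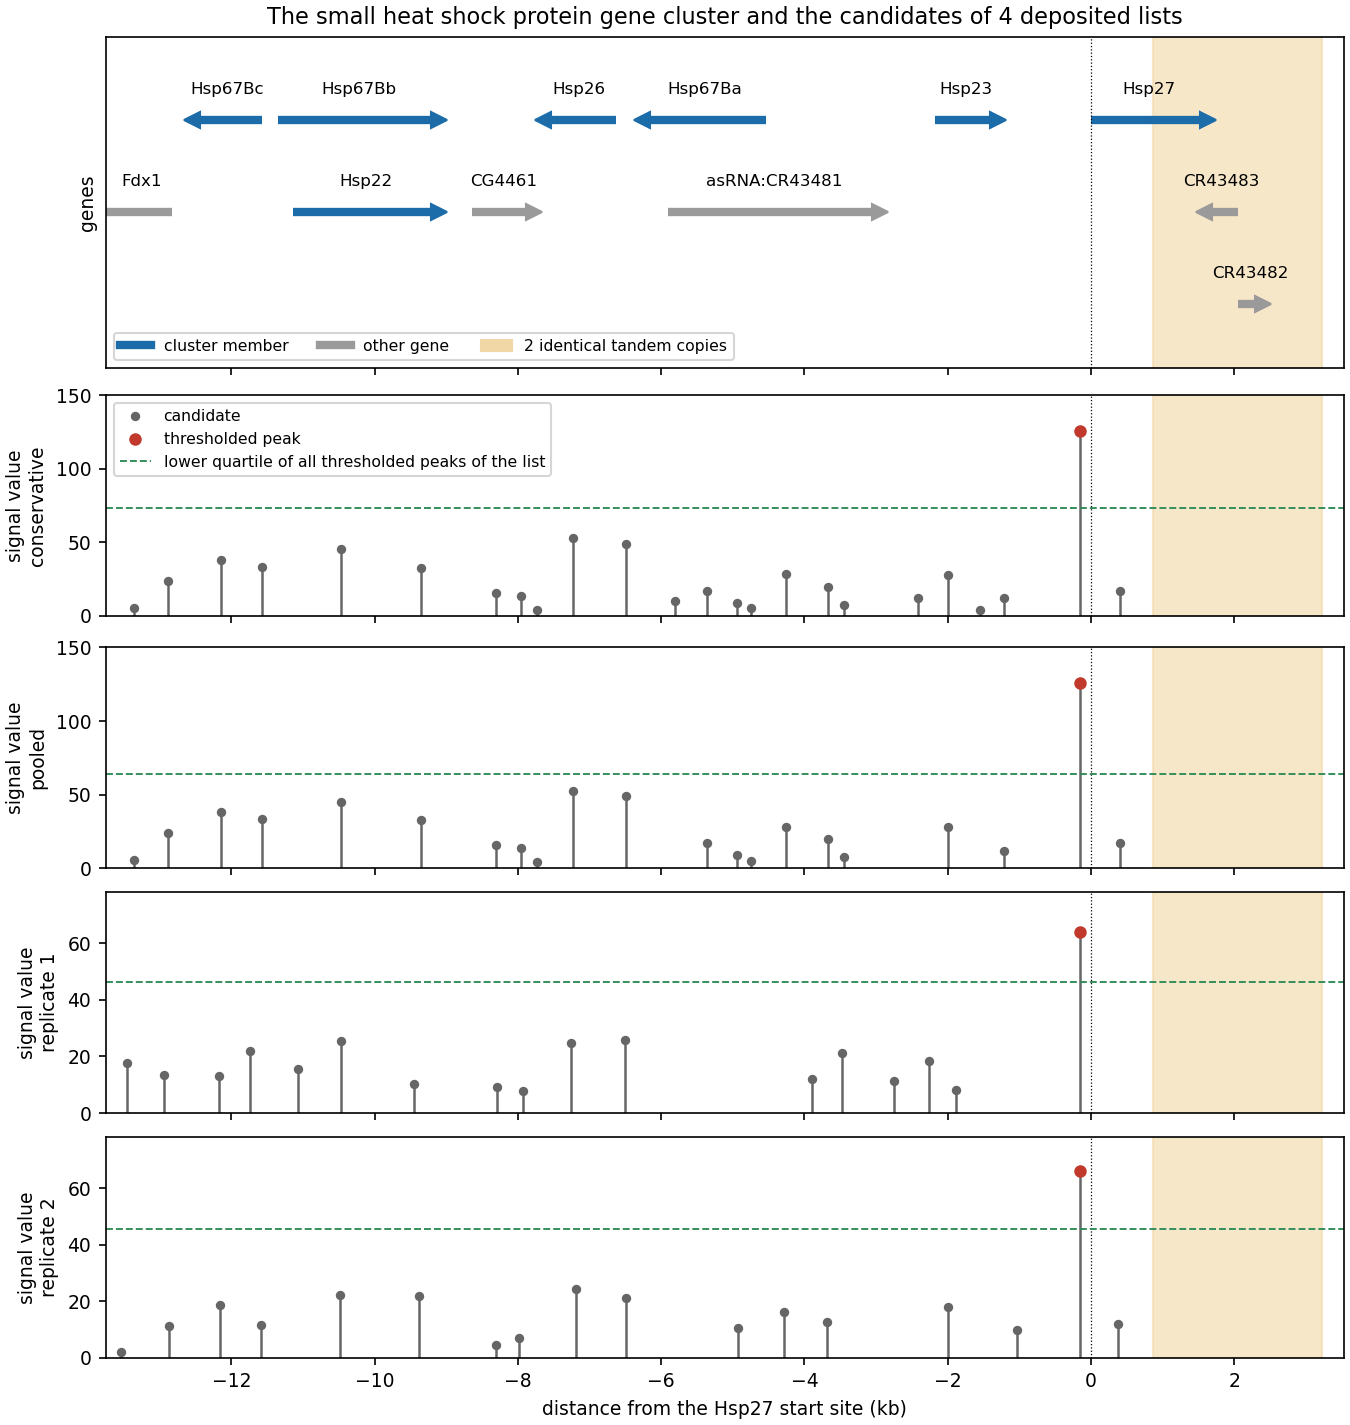
Genes of the cluster (top, arrows in the direction of transcription) and signal values of all candidates in the 4 deposited lists (vertical lines), against distance from the Hsp27 start site in kb. Filled red circles are thresholded peaks and dashed lines are the lower quartile of all thresholded peaks in that list. The Hsp27 peak is the one thresholded peak in each list, and no candidate lies in the shaded tandem copies.

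The Hsp27 peak had its summit 145 bp upstream of the start site in the conservative, pooled and replicate 1 lists and 147 bp upstream in replicate 2. Its signal value was 63.8 in replicate 1 and 66.1 in replicate 2. These are the values of the same peak in both replicates' own lists, and each lay above the median of that list's thresholded peaks, 56.8 in replicate 1 and 56.3 in replicate 2. In the conservative list the signal value was 125.8, against a median of 92.0 and quartiles of 73.3 and 128.4 over all 663 peaks. The highest peak of that list stood at 700.6.

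By rank, the Hsp27 peak was number 176 of the 663 conservative peaks and 184 of the 139481 candidates, since 8 candidates of higher signal value missed the threshold. It was number 166 of 427 in replicate 1, 198 of 569 in replicate 2 and 180 of 944 in the pooled list. The global IDR was 0.000977 in the conservative list, 0.000432 in the pooled list, 0.000993 in replicate 1 and 0.000253 in replicate 2. Of the thresholded peaks, 26.4% had a higher signal value in the conservative list, 18.96% in the pooled list, 38.6% in replicate 1 and 34.6% in replicate 2.

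The 2 replicates placed this peak closely. Their summits lay 2 bp apart, against a median of 23 bp (quartiles 8 and 44) over the 663 conservative peaks and 70 bp over the 24 candidates of the cluster window. The log2 ratio of signal values, replicate 2 over replicate 1, was 0.05 at Hsp27, while over all conservative peaks its median was 0.18 with quartiles of −0.19 and 0.53. Within the ranked lists of the single replicates, each made from 2 input lists, the inputs were 33.8 and 28.5 in replicate 1 and 34.8 and 31.3 in replicate 2. The first input was the higher one in both replicates.

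Hsp27 carried 1 further candidate in the conservative list, in its coding sequence 402 bp past the start site, with a signal value of 17.1 (7.21 in replicate 1 and 11.8 in replicate 2) and an IDR of 0.640. Its replicate 1 value belongs to an input peak that is not in the ranked list of replicate 1 itself. The upstream peak was thus the one thresholded peak at this gene. Across the whole window its conservative signal value was 2.39 times that of the next candidate. In the single replicates' lists the same ratio was 2.46 in replicate 1 and 2.71 in replicate 2.

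**Figure D2:**
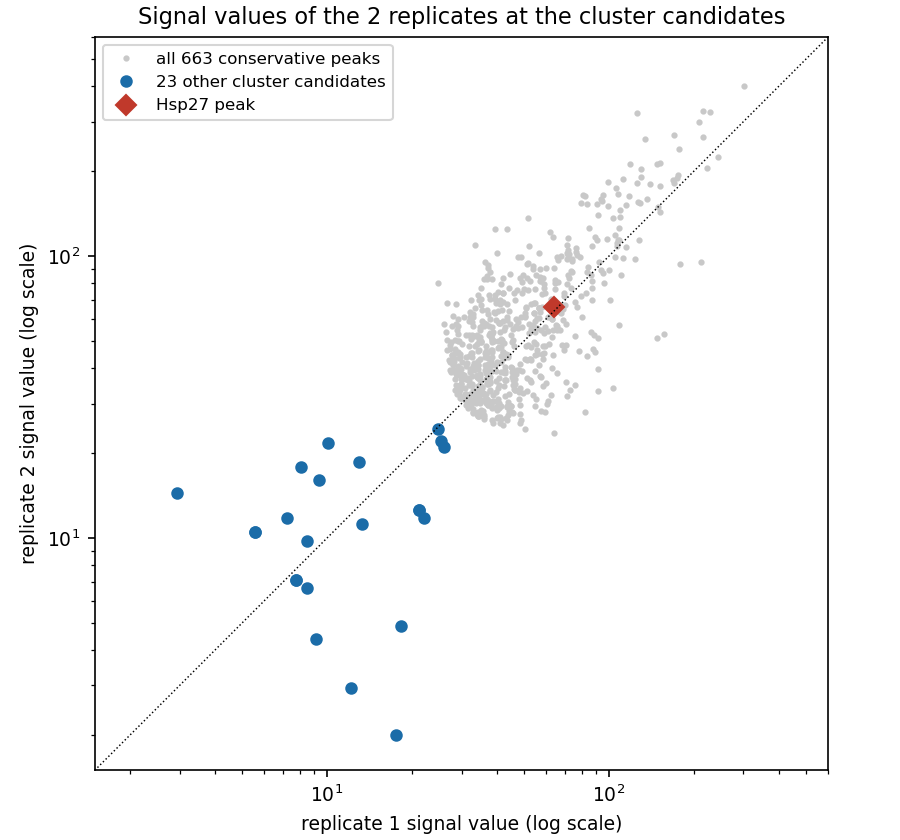
Signal values in replicate 1 (x axis) and replicate 2 (y axis), both on log scales, of the 24 candidates in the cluster window over all 663 conservative peaks (grey). Values are those of the paired input peaks, some of which are not in that replicate's own list. The dotted line marks equal values, and candidates that share an input pair fall on one point. The Hsp27 peak at 63.8 and 66.1 lies inside the cloud of conservative peaks, and the other 23 candidates lie at or below its lower edge.

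Among the remaining members, Hsp26 (FBgn0001225, chr3L:9376418-9377427, minus strand), which encodes a small heat shock protein of the cytosol, had the highest candidates. One lay in its coding sequence at chr3L:9376688-9376971, 545 bp past the nearer of its start sites, with a conservative signal value of 52.7. Its values were 24.7 in replicate 1 and 24.4 in replicate 2. Its IDR was 0.0350 and its rank 1340 of 139481. The other, whose sequence is printed above, had its summit 140 bp upstream of the first start site, with a signal value of 48.9 (26.0 in replicate 1 and 21.0 in replicate 2), an IDR of 0.0534 and a rank of 1784. The distance upstream was close to that of the Hsp27 peak, and both replicate values were under the lower quartile of thresholded peaks, 46.4 in replicate 1 and 45.4 in replicate 2.

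Hsp22 (FBgn0001223, chr3L:9372931-9374964, plus strand), whose product acts in mitochondria, has 1 start site shared with Hsp67Bb (FBgn0001228, chr3L:9372722-9374964, plus strand) and 1 of its own at chr3L:9373997. The highest candidate of both genes, at chr3L:9373456-9373739, had its summit 399 bp upstream of Hsp22's own start site, inside the longer transcripts. Its conservative signal value was 45.3, with 25.4 in replicate 1 and 22.1 in replicate 2, an IDR of 0.0466 and a rank of 2525. The replicate summits of this candidate lay 11 bp apart. A second candidate, in the Hsp22 coding sequence 715 bp past that start site, had 32.8 (10.1 in replicate 1 and 21.8 in replicate 2) and an IDR of 0.603. At this second one the replicates differed by over 2-fold, while at the upstream one they differed by less.

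Hsp67Bc (FBgn0001229, chr3L:9371511-9372497, minus strand), a small heat shock protein that works with the co-chaperone Starvin in protein quality control, had candidates of 38.1 in its coding sequence and 33.3 at its start site, with the summit of the start site candidate 12 bp past the start. The coding candidate had 13.0 in replicate 1 and 18.6 in replicate 2, and an IDR of 0.410. The start site candidate had 22.0 in replicate 1 and 11.8 in replicate 2, and an IDR of 0.447. The replicates thus ranked these 2 candidates in opposite order, and their summits for the start site candidate lay 153 bp apart. The start site candidate also lay within 1 kb of Hsp67Bb and Hsp22, since the Hsp67Bc and Hsp67Bb genes are divergent neighbours.

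Hsp67Ba (FBgn0001227, chr3L:9377802-9379534, minus strand) and Hsp23 (FBgn0001224, chr3L:9381882-9382765, plus strand) had no candidate of their own above a conservative signal value of 28.3. Upstream of Hsp67Ba the nearest summit lay 278 bp before the start site, with a signal value of 28.3 (9.38 in replicate 1 and 16.1 in replicate 2) and an IDR of 0.596. The replicate 1 input peak behind it is not in the ranked list of replicate 1 itself. This upstream candidate lies in an exon of asRNA:CR43481, an antisense RNA that overlaps Hsp67Ba on the opposite strand. A higher candidate within 1 kb of Hsp67Ba was the one in the Hsp26 coding sequence, which is 2704 bp from the Hsp67Ba start site. Hsp23, a cytosolic small heat shock protein, had 27.7 in its coding sequence, 182 bp past the start site (8.11 in replicate 1 and 17.9 in replicate 2), with an IDR of 0.652. Its upstream candidate, 233 bp before the start site, had 12.2 (18.3 in replicate 1 and 4.86 in replicate 2). The replicate 2 input peak of this candidate is not in the ranked list of replicate 2 itself. Replicate 1 had the higher value in the pair upstream of Hsp23, and replicate 2 in the pair in its coding sequence. The paired replicate summits lay 166 bp apart upstream and 114 bp apart in the coding sequence, so each pair compares different positions.

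**Figure D3:**
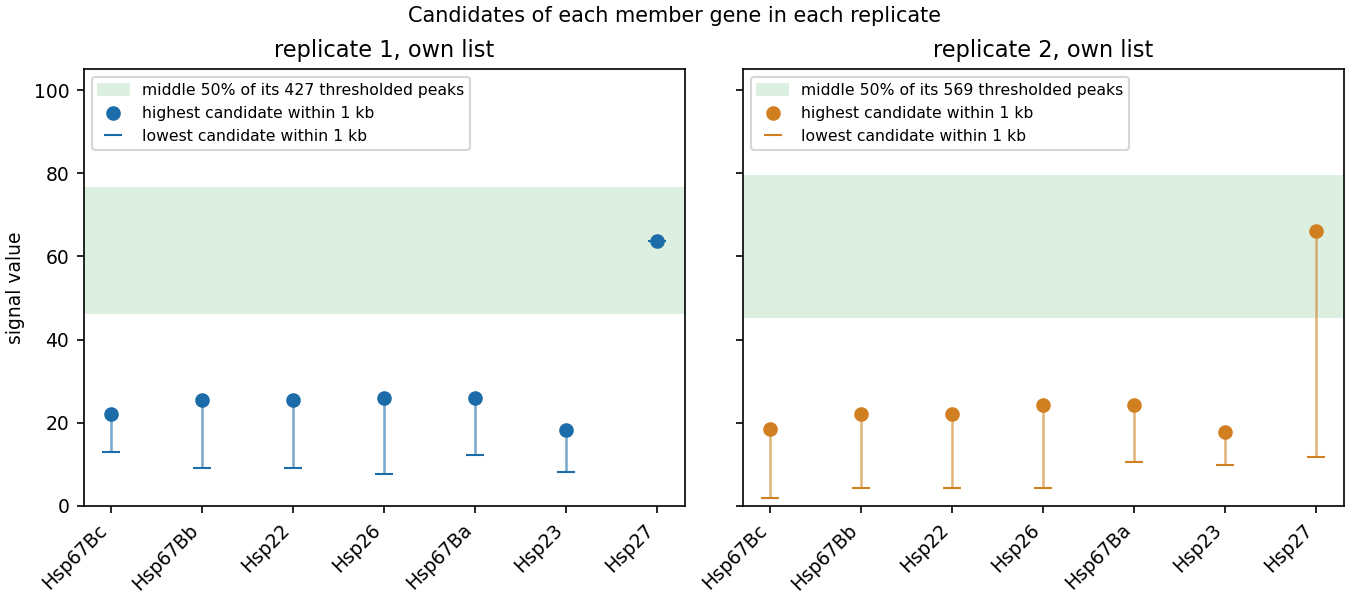
Highest (circles) and lowest (bars) signal value among the candidates within 1 kb of each member in the replicate 1 list (left) and the replicate 2 list (right). The shaded band holds the middle 50% of that list's thresholded peaks. Hsp27 at 63.8 and 66.1 lies in the band in both lists, and the other 6 members reach 18.3 to 26.0 in replicate 1 and 17.9 to 24.4 in replicate 2, with candidates shared between neighbours.

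In each replicate's own list the highest candidate of each of the other 6 members lay between 18.3 and 26.0 in replicate 1 and between 17.9 and 24.4 in replicate 2. None of these passed an IDR of 0.05 in either replicate's list. The order of the members by conservative signal value was Hsp27, then Hsp26 and Hsp67Ba with the same candidate, then Hsp22 and Hsp67Bb with the same candidate, then Hsp67Bc and Hsp23. The step below Hsp27 was present in both replicates. By their highest candidate the members had the same order in both replicates' own lists. The 3 candidates behind Hsp26, Hsp22 and their neighbours lay within 24.7 to 26.0 in replicate 1 and 21.0 to 24.4 in replicate 2, and these 3 candidates changed order: the Hsp26 upstream candidate was the highest of them in replicate 1 and the Hsp26 coding candidate in replicate 2.

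Any candidate, thresholded or not, was present within 1 kb of 7 of 7 members in each of the 4 lists. Over all protein-coding genes 91.0% had one in the conservative list, so this count says little about the cluster. At a looser IDR of 0.05, 5 of 7 members had a candidate in the conservative list, and 11.7% of all genes did. Those 5 members, Hsp27, Hsp26, Hsp67Ba, Hsp22 and Hsp67Bb, rested on 3 candidates, since neighbours share them. Counted by candidates, 3 of 24 in the window passed an IDR of 0.05, against 1.14% of the conservative list, and 1 of 24 was thresholded, against 0.475% of the list. In the pooled list the same 5 members had such a candidate, with 4 candidates of the window passing. In the single replicates' lists the Hsp27 peak was the 1 candidate of the window that passed an IDR of 0.05. In the conservative list, the candidate just inside that limit was the one upstream of Hsp22 at an IDR of 0.0466, and the one just outside was the Hsp26 upstream candidate at 0.0534, which passed in the pooled list.

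Candidates were spread over the window up to the coding sequence of Hsp27. The conservative list held 24 of them, or 1.48 per kb, against 0.982 per kb on arm 3L and 1.02 per kb on all main arms. The single replicates held 17 each, or 1.05 per kb, against 0.810 on 3L in replicate 1 and 0.787 in replicate 2. The values for the arms are over their whole length, pericentric and repeated sequence included. The higher density in the window is therefore not read as a trait of the cluster. The median signal value in the window was 17.0 in the conservative list, against 17.7 over the whole list. In the other lists it was the higher of the pair: 19.7 against 17.6 in the pooled list, 15.4 against 11.4 in replicate 1 and 12.6 against 10.9 in replicate 2. Of the 24, 16 had a summit within 500 bp of a start site of any annotated gene and 5 were intergenic. The same shares over all candidates were not computed, so these 2 counts are not read as a trait of the cluster. The signal values of the 2 replicates over these 24 candidates had a Pearson correlation of 0.82, which was 0.36 over the 23 candidates without the Hsp27 peak (Spearman 0.40 and 0.32). Candidates are parts of the same 2 libraries, and 6 of the 24 share an input pair with a neighbour, so these values are a description.

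The distance rule decided the count at Hsp23. The end of the Hsp23 gene lies 1153 bp from the Hsp27 summit, so that within 2 kb the Hsp27 peak is counted for both genes. It lies upstream of Hsp27 and past the end of Hsp23. The next thresholded conservative peak past the cluster was 39.2 kb from the Hsp27 summit, 170 bp upstream of the aay start site, with a signal value of 172.9. On the other side the next one was 617.7 kb from that summit, 254 bp upstream of a start site of Fhos, with 73.9.

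The promoters of the members carried several of the words that are known for heat shock genes. In the window from 250 bp before to 50 bp after the start site, 5 of 7 members had a heat shock element pair at 1 or more of their start sites (Hsp22, Hsp23, Hsp26, Hsp67Bb and Hsp67Bc), and 15.9% of 19607 protein-coding start sites had one. With 500 bp upstream the count was 6 of 7, the added gene being Hsp27, and the share of all start sites was 27.1%. GAGAG was present at 4 members (Hsp22, Hsp23, Hsp26 and Hsp67Bb), against 33.2% of all start sites, and TATAAA at 6, against 42.2%. Members with more than 1 start site had more chances to hold a word than a single start site. TATCGATA, the word of the DNA replication-related element, was found at 0 members, against 7.99% of start sites. A heat shock element of 3 alternating units was found at 0 members in the shorter window and at Hsp23 alone in the longer one, against 0.418% and 0.801% of start sites. The promoter of Hsp67Ba held none of the words searched in either window.

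**Figure D4:**
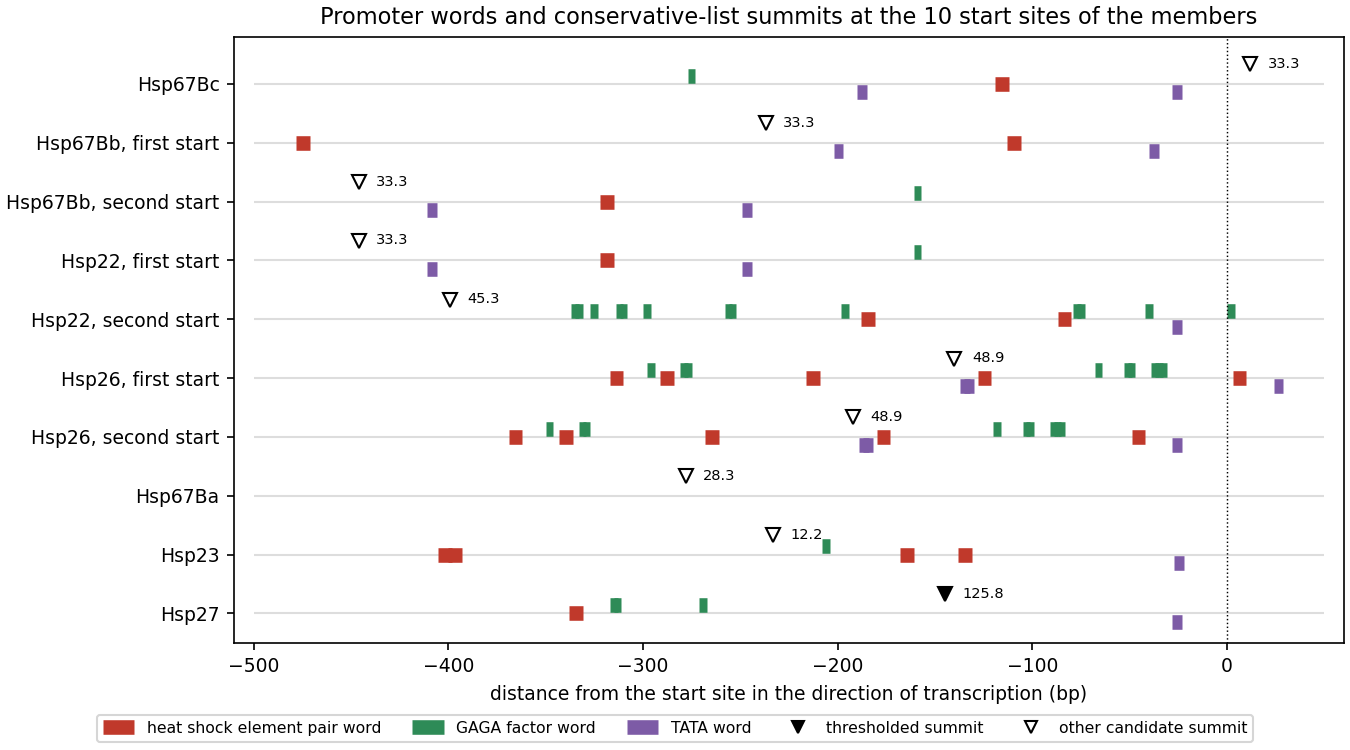
Matches of 3 kinds of words (coloured blocks) and summits of conservative candidates (triangles, with their signal values) at the 10 start sites of the members, against distance from the start site in bp, in the direction of transcription. The filled triangle is the thresholded Hsp27 peak at 145 bp upstream, between its TATA word and the GAGA factor words further upstream. Start sites shared by Hsp22 and Hsp67Bb are drawn for both genes.

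The summit of the Hsp27 peak did not coincide with any of these words. Within 100 bp of it, 0 of the 6 words searched were found. The nearest were TATAAA, 117 bp downstream, GAGAG, 122 bp upstream, and a heat shock element pair, 186 bp upstream and outside the peak's edge, as the printed sequences show. Over the 653 conservative peaks on the main arms, 36.4% had TATAAA within 100 bp of the summit, 25.1% had GAGAG and 10.3% a heat shock element pair. The share of these peaks with 0 of the 6 words was not counted, so the lack cannot be called particular to Hsp27. A further word, ACAGTGG, known from earlier results of these data, was within 100 bp of 16.2% of these peaks. It was in the promoter of 0 members, against 3.80% of all start sites, and the occurrence nearest to the Hsp27 summit was 716 bp away.

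At the Hsp26 upstream candidate the words lay within 100 bp of the summit. A TATAAA match was 3 bp from it, a heat shock element pair of the GAANNTTC form 12 bp, one of the TTCNNGAA form 69 bp and GAGAG 72 bp. That TATAAA match begins 137 bp before the first start site of Hsp26. At the candidate upstream of Hsp22, the nearest GAGAG was 62 bp away and the nearest heat shock element pair 211 bp away. The Hsp27 peak thus had fewer of these words near its summit than the Hsp26 upstream candidate, which was not thresholded. The Hsp26 coding candidate, of higher signal value than the upstream one, had none of them nearby either. The word nearest to its summit was TATAAA, 568 bp away. The share of G and C within 100 bp of the summit was 38.8% at the Hsp27 peak, 29.4% at the Hsp26 upstream candidate and 59.2% at the Hsp26 coding candidate. It had a median of 48.0% over the 24 candidates of the window and 35.8% over the conservative peaks.

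Past the candidate in the Hsp27 coding sequence came a stretch in which all 4 lists were empty. No candidate of any of the 4 lists had its summit between positions 9384465 and 9387365 of 3L, a stretch of 2900 bp with the 3′ part of Hsp27, the pseudogenes CR43483 and CR43482 and the end of CG4080. In the conservative list the gap between neighbouring summits that takes in this stretch was 3390 bp. The median gap on 3L was 644 bp, and 1.83% of gaps there were as long or longer. This gap was picked as the longest of those touching the window, so that share does not measure how unusual it is. The reference sequence holds an exact tandem copy in this stretch: 1182 bp from chr3L:9384931-9386112 are identical to chr3L:9386112-9387293. The first copy takes in 764 bp, or 46.8%, of the Hsp27 gene, including its 3′ end. Of the 50-base windows in the empty stretch, 79.5% have another exact copy on the main arms, and of those in the Hsp27 peak 0% do. The number of candidates in the copies was 0 in each of the 4 lists. Whether reads with more than 1 place in the genome were left out before the peaks were called is not given in the sources used here, and the part of the copy in the empty stretch was not tested.

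Other heat shock and chaperone genes were read from a list of 27 names, of which 25 matched 1 annotated gene each. In the conservative list 0 of the 25 had a thresholded peak within 1 kb, against 5.76% of all protein-coding genes. A candidate was present at 21, against 91.0% of all protein-coding genes. In replicate 1 and in the pooled list 1 had a thresholded peak, against 4.09% and 7.64%. In replicate 2, 0 did, against 4.57%. Counts of 0 and 1 in 25 genes are too small to tell from these backgrounds. The gene with a thresholded peak was Hsp83, the fly Hsp90 chaperone. Its highest signal value was 48.1 in replicate 1, 112 bp upstream of a start site. The pooled list had 2 thresholded peaks at Hsp83, and its highest value was 65.2, 106 bp past a start site. In the conservative list the highest candidate had 60.4, 1068 bp past a start site, with an IDR of 0.0376. The highest one in replicate 2 had 17.7, 1657 bp past a start site. These values belong to different positions at the gene. A peak was thresholded at Hsp83 in 1 of the 2 replicates and at Hsp27 in both. CG4461, a gene of the same family that lies between Hsp22 and Hsp26, had as its highest candidate within 1 kb the one in the Hsp26 coding sequence.

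The conservative peaks whose replicate signal values were most like those of the Hsp27 peak lay outside the cluster. By Euclidean distance on log2 signal values over the 2 replicates, the nearest was in an intron of CG6966, with 65.2 in replicate 1 and 66.3 in replicate 2 and a distance of 0.032. It was followed by a peak in an intron of Btk, nearest to the start site of tRNA:Lys-TTT-1-1, at 0.047, by one at Trpm at 0.052 and by one near imd at 0.053. Of these 4 only the peak near imd lay upstream of its nearest start site, 185 bp before it, as the Hsp27 peak does at 145 bp.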

How the data were processed

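The members and lists were chosen with earlier results of these data known. Chromatin immunoprecipitation was measured in 2 replicates of 1 group. Coordinates are on dm6, per the file headers. The authors deposited a signal value for each peak, a score on a scale that is not stated, with the signal values of both input peaks and the −log10 of the global IDR. Neither aligner nor peak caller is given in the sources used here. Each candidate was placed by its summit, relative to genes of Ensembl BDGP6.54 (release 115) on the main arms. Shares over all genes used protein-coding genes, and the nearest start site was taken over all annotated transcripts. Hsp67Bb is annotated as CG4456 and was matched through its RefSeq synonym. Words were searched in the RefSeq Release 6 sequence on both strands. Genes named are the 7 members, genes in the window, other heat shock genes with a thresholded peak, and the 4 peaks most like that of Hsp27. aay, Fhos, CG4080, Hsp68 and Hsp70Ba were named after their values were seen. Copies were exact 50-base matches on either strand.

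No test was made, since there is 1 group and the members were chosen with results known. The code that places peaks was run on simulated data with summits planted at the midpoints of genes. It recovered 200 of 200 planted genes among 13945. A summit inside a gene always lies within 1 kb of it, so this checks the code only. Alternatives were the pooled list, each replicate alone, other distances, IDR limits and word windows. Read depth is unknown from these lists. The scripts ran under Python 3.11.15 with pandas 2.3.3, numpy 2.4.6, matplotlib 3.10.9 and scipy 1.17.1.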

Additional observations from a re-analysis of the deposited data

How the results depend on the processing

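The count of 1 member with a thresholded peak was the same in the pooled list, in each replicate's list, within 500 bp of the gene or of a start site, and at an IDR of 0.001. In the cluster window the pooled list holds regions and signal values of the conservative list, so it is not an independent alternative. The count was 2 within 2 kb, where Hsp23 is added, and 5 at an IDR of 0.05. The count over all genes, 803, was 442 within 500 bp of a start site, 220 at an IDR of 0.001 and 1625 at an IDR of 0.05, and 571 to 637 with 1 replicate left out. The signal value of the Hsp27 peak, 125.8, was 63.8 to 66.1 with 1 replicate left out. Its rank of 176 was 148 when ranked on the global IDR. The number of words at its summit, 0, was 3 with 250 bp on each side. Wider distances, looser limits and wider windows take in more peaks or words by construction, and a signal value with 1 replicate left out is that of the other. The cause of the change in rank was not tested. The 29 values that stayed within the limits set for a change include the 571 and 637 genes with 1 replicate left out. They also include the 1066 genes of the pooled list, and the 17 window candidates of each single replicate against 24, so staying within these limits does not mean an equal value. No paired analysis was possible because there is 1 group and no comparison between groups.

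With 2 replicates, no control library and fixed peak widths of 260 to 284 bp for nearly all candidates, the lists give a spread over 2 values only and no background level. Read depth and the scale of the signal value are unknown.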

Other observations

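Across the main arms, 11.2% of all 50-base windows had another exact copy, pericentric sequence included. The share of candidate summits in such windows was 1.32% in the conservative list, 1.71% in the pooled list, 0.745% in replicate 1 and 1.84% in replicate 2, and 0 of the 653 thresholded conservative summits on the main arms lay in one. Of the cluster's members, Hsp27 had 45.2% of its windows duplicated and each of the other 6 had 0%. Among the heat shock genes outside the cluster, the 6 Hsp70 genes had between 86.6% and 99.2% duplicated, while Hsp68 and Hsp83 had 0%. Hsp70Ba, which encodes an inducible Hsp70 chaperone, had a replicate 1 candidate with a signal value of 42.0 and an IDR of 0.00892 that was not in the thresholded list, and 10.4 at its highest candidate in replicate 2. The Hsp70 genes share most of their sequence, and whether this affects the values at them was not tested. The shares of duplicated windows cover the genes themselves and not the sequence upstream of them.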
